A study of Mus musculus with 8 samples.

Results

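The 10 genes described here were named by symbol as members of the circadian clock and of the bZIP families tied to it: Nfil3, Dbp, Tef, Per1, Per2, Per3, Nr1d1, Nr1d2, Cry1 and Bhlhe40. All 10 had values among the 48321 genes listed, of which 17488 had values, and 9 of the 13959 genes tested were members. Per2 had a mean of 0.471, below the minimum mean value of 1 set for the test. It is given as values and from a fit without that minimum. RNA was measured in E14 cells, a mouse embryonic stem cell line (strain 129/Ola), in 8 libraries, 2 in each of 4 groups. In the GSK3α line the gene for this kinase was knocked out and its mutant form GSK3α-L195G was supplied as a transgene. In the GSK3β line the same was done for the paralog, with the mutant form GSK3β-L132G. The titles name no knockout of the other paralog in either line. Both mutants are of the analog-sensitive kind, whose enlarged ATP pocket accepts bulky inhibitors such as 3MB-PP1. All cells were starved of serum for 6 h in N2B27, a defined serum-free medium, and treatment of each line meant 2 h with 3MB-PP1 at 5 µM, the other group getting none. The labels name no vehicle for untreated cells, no promoter for the transgenes and no control line without a mutant kinase. There was 1 line per paralog. Whether the libraries of a group came from separate cultures is not stated, so p-values measure only the spread between these libraries.

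The clock is a feedback loop of transcription. The activators CLOCK and BMAL1 (encoded by Arntl) bind E-box elements and switch on Per and Cry genes, whose proteins block them, and the Nr1d1 and Nr1d2 genes, whose REV-ERB proteins repress Arntl and Nfil3. The PAR bZIP factors DBP and TEF activate genes through the D-box, and NFIL3 represses through the same element. Embryonic stem cells carry the RNA of clock genes but are known for lacking a running clock until they differentiate, and GSK3β is known to phosphorylate several clock proteins.

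All values are gene counts as scaled by the authors to an equal upper quartile per library. The smallest value of a library was taken as 1 read, which put the reads assigned to genes at 21.5 to 32.4 M per library. The estimate was higher with inhibitor (26.0 and 26.4 M in the GSK3α line, 31.2 and 32.4 M in the GSK3β line) than without (21.5 and 22.7 M, and 23.8 and 28.9 M). Its part in the results was not tested. Gsk3a was at 141 to 160 in the GSK3α line and 76.2 to 79.9 in the GSK3β line, and Gsk3b at 52.7 to 58.2 and 235 to 258. Reads of a transgene with the coding sequence count toward its gene, so these levels are no check of the knockouts. All 7 embryonic stem cell markers had values, with a sum of 5697 to 5889 over the libraries. Sums of neural markers (6 of 6 with values) were 153 to 175 in the other groups and 225 to 233 in the GSK3β line with inhibitor. That sum followed Tubb3 (a mean of 125 untreated and 179 with inhibitor in this line) and Nes (22.3 and 32.3), while Neurod1 fell (8.87 and 6.16, adjusted p = 0.00352), and the list's median log2 change was -0.09. Trophoblast markers (6 of 7) were at 83.3 to 93.0 and 105 to 110. Of the 5 tested only Tfap2c passed there (25.5 and 46.6), and Krt8 stood at 41.6 and 38.3. Cdx2, with a mean below 1 and so not tested, had 0.195 and 0.321 untreated and 2.43 and 3.27 with inhibitor in the GSK3β line. The sums were 10.3 to 12.1 for primitive endoderm (6 of 7), 11.6 to 17.9 for fibroblasts (4 of 7) and 13.3 to 18.0 for mesendoderm (4 of 5). Of those with values, 1 trophoblast, 3 primitive endoderm, 1 fibroblast and 1 mesendoderm marker had a mean below 1. What part these markers have in the changes below was not tested.

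Cry1, a core repressor of CLOCK and BMAL1, had the highest level of the 10 genes per kilobase of exon. Its mean over the 8 libraries was 18.4 scaled counts per kb, with a range of 17.0 to 19.4. Nr1d2 followed at 4.66 (4.0 to 5.62). Per1 (3.46), Nfil3 (3.38) and Tef (3.38) came next by mean and could not be ranked, since their libraries overlapped. Nfil3 ran from 2.44 to 4.05 and so also overlapped Nr1d2 above and Nr1d1 (2.50, 2.02 to 2.79) below, while Per1 and Tef overlapped neither. Dbp (1.44) lay apart from its neighbours. Bhlhe40 (0.723) and Per3 (0.567) overlapped, and Per2 was lowest at 0.0805 (0.0377 to 0.10). The 3 Period genes, all repressors, thus differed widely in level, with Per2 resting on 6 to 17 estimated reads per library against 453 to 656 for Per1.

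The promoters of Nr1d2, Nfil3 and Per3, which are 3 of the 4 members that passed a test below, and that of Cry1, the most abundant member, are shown because clock genes are controlled through short elements close to their start. RefSeq windows (build GRCm38.p6, the patch series of mm10) were found for 8 of the 10 members, not for Per2 and Bhlhe40. The 250 bases before each start were searched on both strands for the E-box CACGTG, the D-box TTATGTAA or TTACGTAA, the cAMP response element TGACGTCA, the REV-ERB and ROR core TAGGTCA or TGGGTCA, and the TCF motif CTTTGAT. Bases inside the GENCODE gene model are left out below, and capitals mark a motif:
Nr1d2, chr14:18239128-18239356, minus strand: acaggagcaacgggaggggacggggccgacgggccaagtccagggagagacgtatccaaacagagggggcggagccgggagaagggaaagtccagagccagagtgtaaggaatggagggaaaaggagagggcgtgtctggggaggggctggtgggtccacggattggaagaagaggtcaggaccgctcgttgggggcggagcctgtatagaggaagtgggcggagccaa
Nfil3, chr13:52981074-52981289, minus strand: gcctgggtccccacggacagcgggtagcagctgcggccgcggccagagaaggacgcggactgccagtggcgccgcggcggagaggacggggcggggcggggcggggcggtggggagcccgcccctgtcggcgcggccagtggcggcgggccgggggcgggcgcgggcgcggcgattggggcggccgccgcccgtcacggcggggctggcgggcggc
Per3, chr4:151044666-151044915, minus strand: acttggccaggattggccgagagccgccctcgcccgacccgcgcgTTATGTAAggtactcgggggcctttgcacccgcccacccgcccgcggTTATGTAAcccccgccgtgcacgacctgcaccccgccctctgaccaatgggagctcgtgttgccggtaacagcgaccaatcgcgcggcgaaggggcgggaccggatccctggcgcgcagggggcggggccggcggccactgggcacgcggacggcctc
Cry1, chr10:85185065-85185304, minus strand: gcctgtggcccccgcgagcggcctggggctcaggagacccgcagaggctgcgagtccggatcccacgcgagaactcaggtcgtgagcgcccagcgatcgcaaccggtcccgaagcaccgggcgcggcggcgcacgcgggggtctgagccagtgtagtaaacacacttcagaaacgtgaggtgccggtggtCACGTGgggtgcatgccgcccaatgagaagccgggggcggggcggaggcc
Motif matches did not overlap each other.

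The Per3 window held 2 D-boxes, which began 205 and 158 bases before the start. Of all 32851 promoter windows 0.931% held a D-box, and no other member's window did. The E-box of Cry1 began 60 bases before its start. E-boxes also stood 166 bases before the first Per1 start and 127 and 138 bases before the first and second Tef starts (6.02% of all windows). These Per1 and Tef windows lie inside the GENCODE gene spans, which begin upstream of them. Nfil3 had a REV-ERB core 12 bases before the RefSeq start, inside the longer GENCODE model and so not printed (5.38% of all windows). The windows of Nr1d2, Nr1d1 and Dbp held none of these motifs, and none of the 8 members with a window had the cAMP element (1.55%) or the TCF motif (3.21%). For Nr1d1 and Dbp the bases after the RefSeq start were not found in a GENCODE transcript, so the place of their windows is uncertain. These matches describe letters in a short window and say nothing on binding in these cells.

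**Figure D1:**
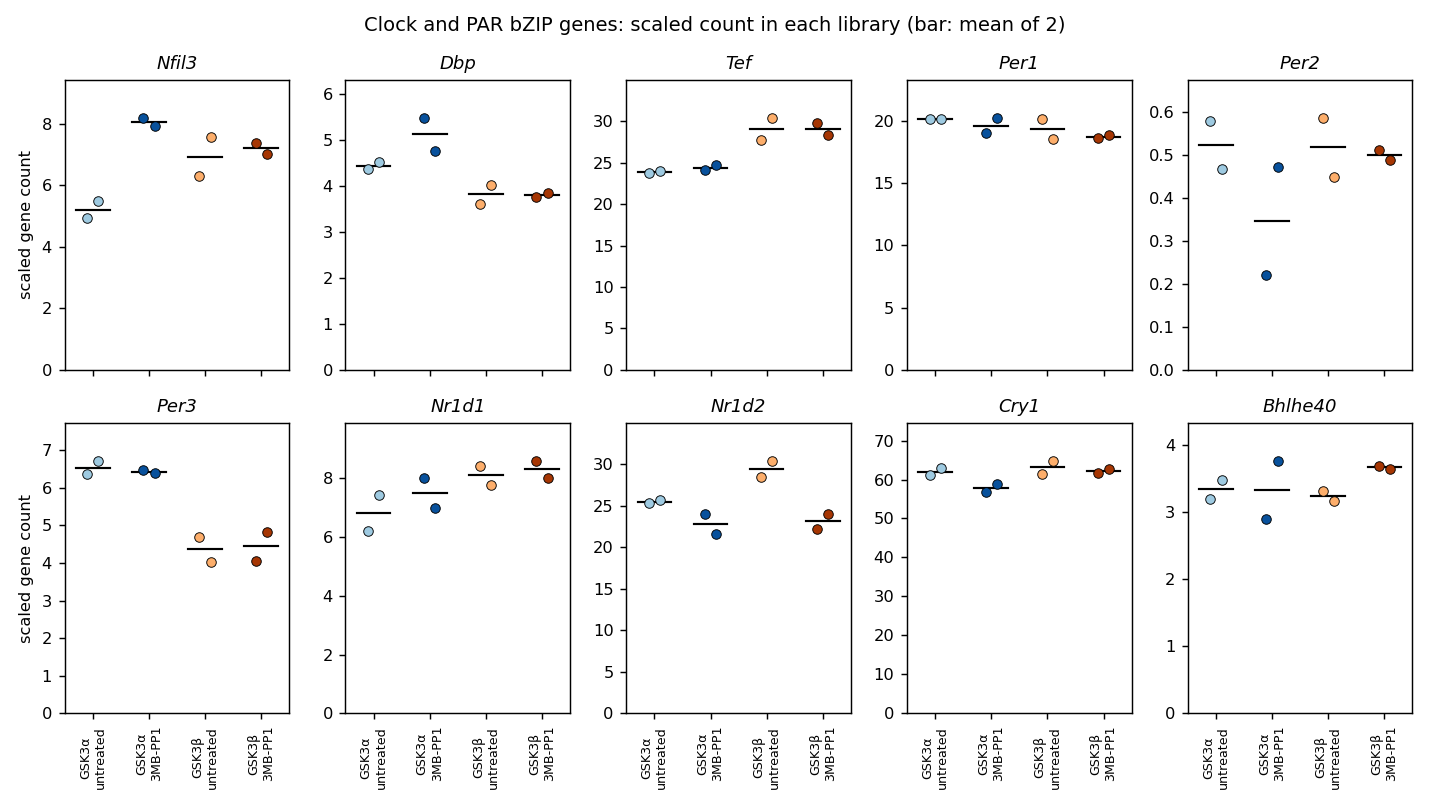
Scaled gene count (vertical axis, from 0) of the 10 genes in each of the 8 libraries, by line and treatment; points are libraries and bars the mean of 2. Nr1d2 is lower with 3MB-PP1 in both libraries of each line, Nfil3 is lowest in the untreated GSK3α line, and Per3 and Tef differ by line.

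Libraries after 2 h with the inhibitor were compared with untreated ones of the same line. With no vehicle or control line named, effects of the inhibitor, a vehicle and handling cannot be told apart. Nr1d2 fell in the GSK3β line and was the only member to pass there. Nfil3 rose in the GSK3α line and was the only member to pass in that comparison. The other 7 tested members, among them Per1, Per3, Cry1, Dbp and Nr1d1, did not pass in either line. Of the 9 tested members 1 rose and none fell in the GSK3α line, where 0.881% of all tested genes passed (0.265% upward and 0.616% downward). Of the 9, 1 fell and none rose in the GSK3β line, where 14.9% of all tested genes passed (7.49% upward and 7.44% downward), so the members' share was near that of all genes. The median log2 change of the 9 members was -0.01 in the GSK3α line and 0.00 in the GSK3β line, and over all tested genes it was 0.01 and -0.01. The median size of a change, regardless of sign, was 0.10 among the members and 0.06 among all tested genes in the GSK3α line. It was 0.03 among the members and 0.08 among all tested genes in the GSK3β line.

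Nr1d2 encodes REV-ERBβ, a nuclear receptor that represses transcription (chromosome 14, 18204054 to 18239127, mm10). Its values in the GSK3β line were 28.4 and 30.4 untreated and 22.2 and 24.0 with inhibitor. Both treated libraries lay below both untreated ones. In bulk RNA, fewer cells with the transcript and less of it per cell cannot be told apart. The log2 change was -0.34 ± 0.06 (SE, n = 2 against 2), with adjusted p = 0.00101. The call held in all 10 other settings and without any single library, where the log2 change ran from -0.39 to -0.28. In the GSK3α line the values were 25.3 and 25.6 untreated and 24.0 and 21.7 with inhibitor. These groups did not overlap either, yet the log2 change of -0.15 did not pass (adjusted p = 0.329, 95% interval -0.28 to -0.02). The difference between the lines was -0.18 with adjusted p = 0.245 and an interval from -0.37 to 0.00, so the fall is not shown to differ between the lines.

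Its paralog Nr1d1 encodes REV-ERBα (chromosome 11, 98767932 to 98775333). Its values were 6.23 and 7.44 untreated and 8.0 and 6.98 with inhibitor in the GSK3α line, and 8.43 and 7.79 against 8.60 and 8.03 in the GSK3β line. The groups overlapped in both lines. The log2 changes of 0.12 (adjusted p = 0.694) and 0.03 (adjusted p = 0.877) did not pass, with intervals from -0.09 to 0.33 and from -0.18 to 0.24. Nr1d1 shares 263 exon bases with Thra, a thyroid hormone receptor gene on the opposite strand. No strand setting is given in the sources used here, and without strand the reads of such partners cannot be told apart.

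Nfil3 encodes a bZIP repressor of D-box genes (chromosome 13, 52967209 to 52981073). In the GSK3α line it had 4.94 and 5.49 untreated and 8.20 and 7.93 with inhibitor. The groups were well apart, on 111 to 223 estimated reads. The log2 change was 0.55 ± 0.10 (SE), a 1.46-fold rise on the log2(value + 1) scale, with adjusted p = 0.00916. That call ended without untreated replicate 1 (log2 0.48, adjusted p = 0.0925), without inhibitor replicate 1 (0.53, adjusted p = 0.197), without inhibitor replicate 2 (0.57, adjusted p = 0.0943), and without a trend in the prior variance (adjusted p = 0.218). Nfil3 values in the GSK3β line were 6.29 and 7.56 untreated and 7.39 and 7.01 with inhibitor. The treated libraries lay between the untreated ones, with a log2 change of 0.05 (adjusted p = 0.784, interval -0.16 to 0.26).

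The change of Nfil3 differed between the lines by -0.49 ± 0.14 (SE, GSK3β minus GSK3α), with adjusted p = 0.0410. It was the only member of 9 to pass this test, where 6.53% of all tested genes passed (3.62% higher and 2.90% lower). The changes of 4 of the 9 members did not overlap between the lines, as for 65.0% of all tested genes. The call ended without any one of 6 of the 8 libraries: untreated replicate 1 and both inhibitor libraries of the GSK3α line, and untreated replicate 2 and both inhibitor libraries of the GSK3β line, with adjusted p from 0.0971 to 0.143. It also ended without the filter on low values (0.0581), with quantile normalization (0.0643) and without the variance trend (0.113).

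The PAR bZIP genes among the members did not pass with the inhibitor in either line. Dbp (chromosome 7, 45705088 to 45710203) had 4.37 and 4.52 untreated and 5.49 and 4.76 with inhibitor in the GSK3α line, and 3.61 and 4.03 against 3.76 and 3.85 in the GSK3β line. The treated libraries of the GSK3α line lay above the untreated ones, and those of the GSK3β line lay between them. Log2 changes of 0.17 (interval -0.06 to 0.39, adjusted p = 0.580) and 0.00 (-0.23 to 0.22, adjusted p = 0.985) did not pass. Dbp shares 539 exon bases with Sphk2, a sphingosine kinase gene on the opposite strand, so its reads carry the same limit as those of Nr1d1. So do those of Tef (193 bases), Bhlhe40 (118) and Arntl (33), each with an antisense gene. Tef (chromosome 15, 81802421 to 81826863) had 23.7 and 24.0 untreated and 24.0 and 24.7 with inhibitor in the GSK3α line, and 27.7 and 30.4 against 29.7 and 28.4 in the GSK3β line. Its treated libraries lay narrowly above the untreated ones in the GSK3α line and between them in the GSK3β line. Its log2 changes of 0.03 (-0.09 to 0.15) and 0.00 (-0.12 to 0.12) did not pass.

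The repressors of the negative limb did not pass either. Per1 (chromosome 11, 69095217 to 69109960), which many acute signals induce within an hour or so in other cells, stayed between 18.5 and 20.2 in all 8 libraries. Its log2 changes were -0.04 in each line, with intervals from -0.17 to 0.09 and from -0.18 to 0.09. Cry1 (chromosome 10, 85131700 to 85185064) had 61.2 and 62.9 untreated and 56.9 and 58.9 with inhibitor in the GSK3α line. The groups did not overlap, but the log2 change of -0.10 did not pass (interval -0.18 to -0.01, adjusted p = 0.339). Cry1 in the GSK3β line had 61.5 and 64.8 against 61.6 and 62.8, a log2 change of -0.02 (-0.11 to 0.07). Per3 (chromosome 4, 151003652 to 151044665) had 6.36 and 6.72 against 6.47 and 6.40 in the GSK3α line and 4.69 and 4.04 against 4.05 and 4.84 in the GSK3β line. Its groups overlapped within each line, with log2 changes of -0.02 (-0.24 to 0.20) and 0.02 (-0.20 to 0.24).

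Bhlhe40 encodes DEC1, an E-box repressor (chromosome 6, 108660629 to 108666925). It had 3.20 and 3.49 against 2.91 and 3.77 in the GSK3α line and 3.32 and 3.17 against 3.69 and 3.65 in the GSK3β line. The treated libraries overlapped the untreated ones in the GSK3α line and lay above them in the GSK3β line. The log2 changes were -0.01 (-0.26 to 0.24) and 0.14 (-0.11 to 0.39), neither past the test. Per2 (chromosome 1, 91415982 to 91459324) had 0.578 and 0.468 against 0.221 and 0.471 in the GSK3α line and 0.586 and 0.449 against 0.510 and 0.488 in the GSK3β line. On 6 to 17 estimated reads it was fitted only without the filter on low values. There its log2 changes were -0.18 in the GSK3α line and -0.02 in the GSK3β line, each ± 0.13 (SE). Neither passed (adjusted p = 0.673 and 0.963). In all, the libraries of 5 of the 9 tested members did not overlap between treated and untreated in the GSK3α line, where 42.0% of all tested genes showed this. This held for 2 of 9 in the GSK3β line, where 57.3% of all tested genes showed it, so such a count by itself sets the members little apart.

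**Figure D2:**
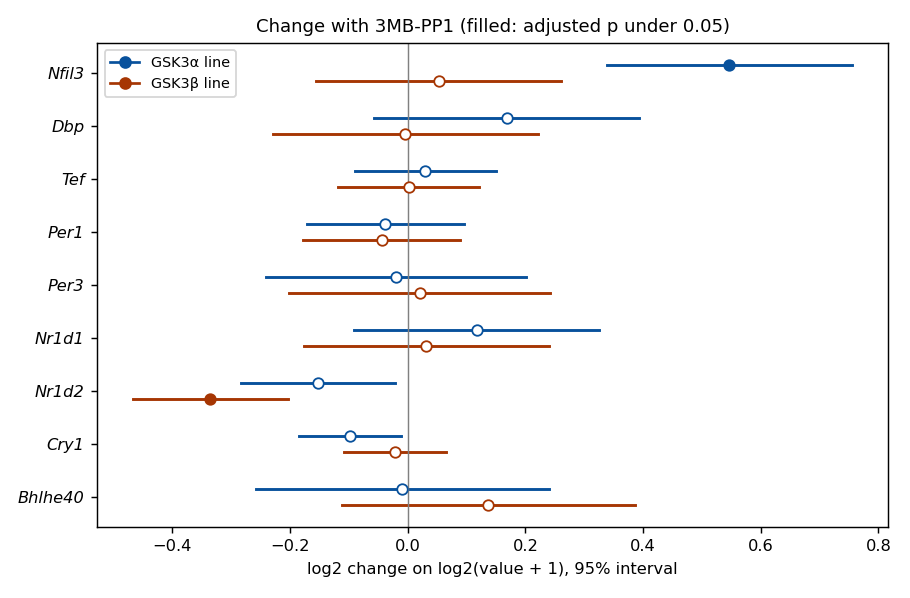
Log2 change with 3MB-PP1 on the log2(value + 1) scale (horizontal axis) with its 95% interval for the 9 tested members, in the GSK3α line (blue) and the GSK3β line (brown); filled points have an adjusted p under 0.05. Filled points are Nfil3 in the GSK3α line at 0.55 and Nr1d2 in the GSK3β line at -0.34.

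More members passed between the untreated lines than between treated and untreated libraries of either line. This comparison asks how cells with mutant GSK3α and cells with mutant GSK3β differ before the inhibitor is given. Line, clone and genotype cannot be told apart in it. In the GSK3β line Tef, Nfil3 and Nr1d2 were higher and Per3 was lower, which makes 3 of 9 higher and 1 lower. Of all tested genes 48.2% passed here (22.3% higher and 25.9% lower), so the members' share was near that of all genes. The median log2 difference was 0.02 over the members and -0.02 over all tested genes. The median size of a difference was 0.20 among the members and 0.16 among all tested genes. Libraries did not overlap for 6 of the 9 members, as for 72.2% of all tested genes.

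Per3 had 6.36 and 6.72 in the untreated GSK3α line and 4.69 and 4.04 in the untreated GSK3β line. All 4 libraries of the GSK3β line, treated or not, lay below all 4 of the GSK3α line. The log2 difference between untreated lines was -0.49 ± 0.11 (SE, adjusted p = 0.000813). Tef went the other way, with 23.7 and 24.0 against 27.7 and 30.4 and again no overlap between the lines in either condition. Its log2 difference was 0.27 ± 0.06 (adjusted p = 0.000719), with the strand limit given above. Both calls held in all 10 other settings and without any single library.

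Nfil3 was higher in the untreated GSK3β line by 0.35 ± 0.10 (SE, adjusted p = 0.00718). The call was lost on leaving out GSK3α untreated replicate 1 (0.29, adjusted p = 0.0615) or GSK3β untreated replicate 2 (0.23, adjusted p = 0.112). Nr1d2 was higher by 0.20 ± 0.06 (adjusted p = 0.0134), a call that ended without the same libraries (0.19, adjusted p = 0.0564, and 0.15, adjusted p = 0.109) and without the variance trend (adjusted p = 0.0518). These differences share untreated libraries with the inhibitor comparisons, so a low untreated level of Nfil3 in the GSK3α line enters its rise there, and a high one of Nr1d2 in the GSK3β line enters its fall. With inhibitor Nr1d2 stood at 22.9 ± 1.69 (SD, n = 2) in the GSK3α line and 23.1 ± 1.31 in the GSK3β line, with overlapping libraries. Nfil3 stood at 8.07 ± 0.189 and 7.20 ± 0.267, without overlap and in the opposite order to the untreated lines. The treated lines were not tested against each other.

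The other 5 tested members did not pass between the untreated lines. Nr1d1 differed by 0.22 (interval 0.01 to 0.43, adjusted p = 0.0739), and passed on leaving out GSK3α untreated replicate 2 (0.33, adjusted p = 0.0254). Its partner Thra differed in the same direction by 0.78 (adjusted p = 1.91e-07). Dbp differed by -0.18 (-0.40 to 0.05, adjusted p = 0.187) and its partner Sphk2 by -0.37 (adjusted p = 1.15e-05). What part the shared bases have in these values was not tested. Per1 (-0.06), Cry1 (0.02) and Bhlhe40 (-0.03) had adjusted p from 0.479 to 0.843.

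**Figure D3:**
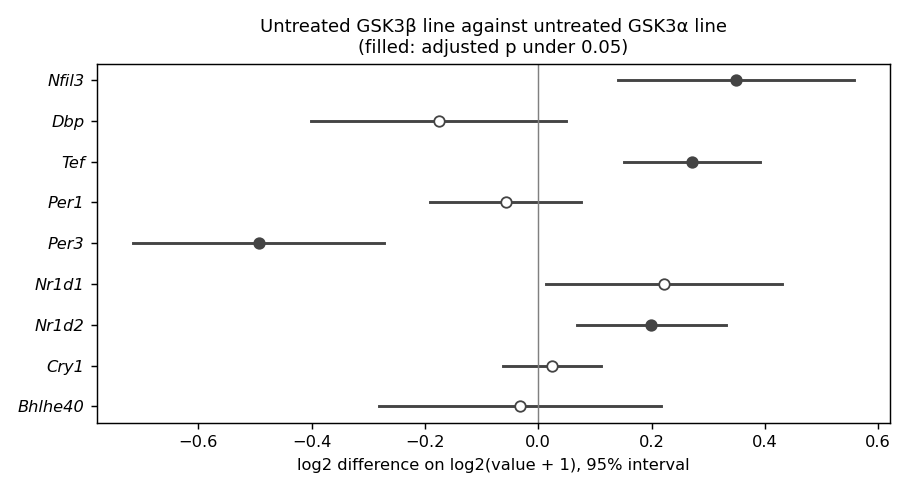
Log2 difference of the untreated GSK3β line from the untreated GSK3α line on the log2(value + 1) scale, with 95% intervals, for the 9 tested members; filled points have an adjusted p under 0.05. Tef at 0.27, Nfil3 at 0.35 and Nr1d2 at 0.20 lie above 0 and Per3 at -0.49 below.

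Among the other clock transcription factors and partners, the 2 activators of the loop rose in the GSK3β line with inhibitor. Of the 11 genes of this list 10 had values and 8 were tested. Of these 2 rose there and none fell, with a median log2 change of 0.08, where 14.9% of all tested genes passed. Arntl, which encodes BMAL1 and is a classical target of REV-ERB repression, had 26.1 and 26.9 untreated and 31.6 and 30.9 with inhibitor. The groups did not overlap, and the log2 change was 0.23 ± 0.05 (SE, adjusted p = 0.00471), which no longer passed once inhibitor replicate 1 of the GSK3β line was left out (0.22, adjusted p = 0.0672). Clock, its partner, had 29.6 and 31.3 against 35.2 and 34.6, a log2 change of 0.19 ± 0.05 (adjusted p = 0.0232). That call was lost on leaving out untreated replicate 1 (0.15, adjusted p = 0.181), inhibitor replicate 1 (0.18, adjusted p = 0.173) or inhibitor replicate 2 (0.20, adjusted p = 0.0817), and without the variance trend (0.0767).

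None of the 8 passed in the GSK3α line, where 0.881% of all tested genes did. Arntl had 31.3 and 29.7 untreated and 30.3 and 31.2 with inhibitor, a log2 change of 0.01, and Clock had 26.7 and 24.97 against 23.6 and 24.7, a change of -0.09 (adjusted p = 0.531). The change of Clock differed between the lines by 0.28 (adjusted p = 0.0330), but the call ended without any one of 6 of the 8 libraries, all but untreated replicate 2 of each line (adjusted p from 0.0640 to 0.147) and without the variance trend (0.128). That of Arntl differed by 0.22 and did not pass (adjusted p = 0.0843). Nr1d2 fell and Arntl rose in the GSK3β line, where 14.9% of all tested genes passed. Nr1d1, the other REV-ERB gene, and Nfil3, the other REV-ERB target named above, did not pass in that line. Whether these changes are linked was not tested. Arntl was also lower in the GSK3β line before treatment, at 26.5 against 30.5 in the GSK3α line (log2 -0.20, adjusted p = 0.00425). With inhibitor it was at 31.2 against 30.8.

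Cry2, the paralog of Cry1, Rora, an activating competitor of REV-ERB, the PAR bZIP gene Hlf, and Ciart, Timeless and Arntl2 did not pass in either line or in the difference. Hlf had 2.15 and 1.96 untreated and 2.64 and 2.79 with inhibitor in the GSK3β line, and its change of 0.28 on the log2 scale missed the threshold (adjusted p = 0.244). Rorb had no values, and Npas2 and Bhlhe41 lay below the minimum mean.

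**Figure D4:**
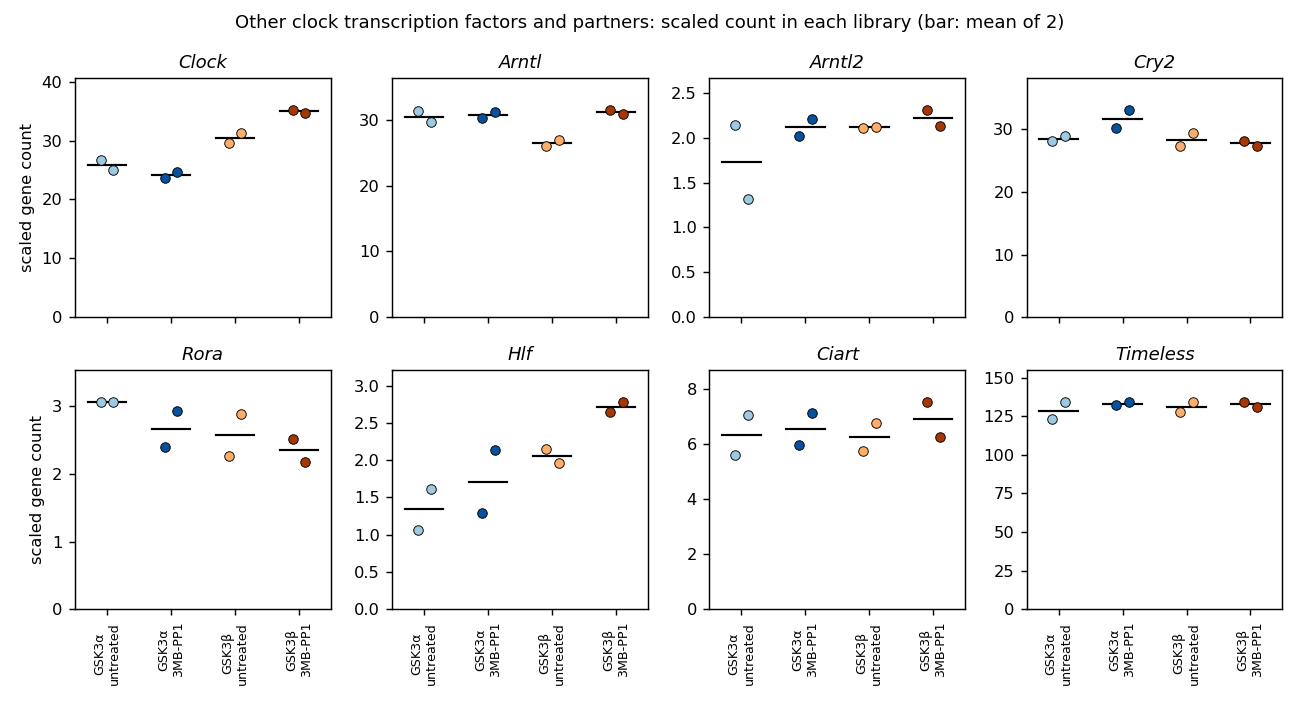
Scaled gene count (vertical axis, from 0) of the 8 tested clock transcription factors and partners outside the 10 members, by line and treatment; points are libraries and bars the mean of 2. In the GSK3β line Clock and Arntl are higher in both treated libraries than in both untreated ones.

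Kinases, ubiquitin ligases and cofactors that act on clock proteins had 19 of 19 genes with values and 18 tested. None passed in the GSK3α line, and in the GSK3β line 2 rose and 1 fell by small amounts, with a median of 0.00. Of all tested genes 0.881% and 14.9% passed in these comparisons. Csnk1e, a kinase of PER proteins, rose by 0.15 and Sfpq, an RNA-binding partner of the PER complex, by 0.13, while the phosphatase gene Ppp1ca changed by -0.12 (adjusted p from 0.0117 to 0.0276). All 3 calls were lost on leaving out untreated replicate 1 (adjusted p up to 0.237) or inhibitor replicate 1 (adjusted p up to 0.272), and those of Csnk1e and Ppp1ca also without inhibitor replicate 2. All 3 also ended without the variance trend. In the difference between the lines, where 6.53% of all tested genes passed, 1 of 18 was higher, Csnk1e (0.20). That call ended without any one of 6 of the 8 libraries, the 4 inhibitor libraries and untreated replicate 1 of each line (adjusted p from 0.0963 to 0.178). It also ended without the variance trend, with a replicate block (0.0609), without the filter on low values (0.0574) and with quantile normalization (0.0543).

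Genes known as clock outputs had 10 of 10 tested. None passed in the GSK3α line, where 0.881% of all tested genes did. In the GSK3β line 2 rose and 2 fell, where 14.9% of all tested genes passed. The same 4 genes passed the test of the difference in the same directions, where 6.53% of all tested genes passed. Klf10, a zinc finger repressor, went from 75.4 and 79.0 to 100.9 and 95.9 (log2 0.35, adjusted p = 6.76e-06), and Cdkn1a, a cell cycle inhibitor, rose by 0.92. Noct, a clock-controlled phosphatase, fell from 124 in both libraries to 101 and 95.9 (log2 -0.33), and Wee1, a kinase that holds back mitosis and is under clock control in liver, changed by -0.19 (adjusted p = 0.00119). The log2 changes in the GSK3α line were 0.06 for Klf10, -0.22 for Cdkn1a (adjusted p = 0.0547), -0.15 for Noct (adjusted p = 0.0513) and 0.00 for Wee1. There Cdkn1a passed in 5 of the 10 other settings and so did Noct. The difference between the lines held for Cdkn1a without any single library. For Klf10 it was lost on leaving out GSK3β inhibitor replicate 1 (adjusted p = 0.0505) and without the variance trend (0.113). For Noct it ended without any library but inhibitor replicate 1 of the GSK3α line, with a replicate block (0.0557), TMM scaling (0.0554) or limma-voom (0.0588), without the filter on low values (0.0522) and without the variance trend. For Wee1 it ended without any library but untreated replicate 2 of the GSK3α line and untreated replicate 1 of the GSK3β line, with limma-voom (0.0510) and without the variance trend (0.167).

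Signals known to induce Per1 in other cells were followed by 2 lists. Beside their counts, 0.881% of all tested genes passed in the GSK3α line, 14.9% in the GSK3β line and 6.53% in the difference. Glucocorticoid-responsive genes had 9 of 10 tested. None passed in the GSK3α line, and 2 rose (Sgk1 by 0.87 and Mt2 by 0.15) and 2 fell (Cebpd at -0.57 and the receptor gene Nr3c1 at -0.18) in the GSK3β line, with a median of -0.02. The calls of Mt2 and Nr3c1 ended without untreated replicate 2 or inhibitor replicate 1 of this line, and that of Nr3c1 also without inhibitor replicate 2 (adjusted p from 0.0761 to 0.151). Without the variance trend neither passed (0.132 and 0.0566). Sgk1 (0.95) and Cebpd (-0.55) also passed the test of the difference between the lines, the latter not once any single library was left out (adjusted p from 0.0544 to 0.110). Genes responsive to cAMP and CREB had 6 of 9 tested. In the GSK3α line Sik1, a salt-inducible kinase, was lower (-0.15, adjusted p = 0.0416), a call that ended without any one of 6 libraries, 4 of this line and the 2 inhibitor libraries of the other (adjusted p up to 0.334). It also ended with quantile normalization (0.0669), with a replicate block (0.0561) and without the variance trend (0.290). Junb (-0.52) and Pde4d (-0.25) were lower in the GSK3β line and none was higher. The call of Pde4d ended without untreated replicate 2 or either inhibitor library (adjusted p from 0.0683 to 0.191) and without the variance trend (0.116). Junb had 11.3 and 12.1 untreated and 7.45 and 8.33 with inhibitor.

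The genes whose profile was most like that of 4 members were found by the root mean square difference of centred log2(value + 1) over the 8 libraries, among genes with a mean of at least 5. For Nfil3 they were Pdpn (0.108), Sppl2b (0.113) and Pgap3 (0.114), against an SD of 0.227 for Nfil3 itself. All 3 had their lowest values in the untreated GSK3α line, as Nfil3 had, and Pdpn stood at 6.45 and 6.46 there and at 7.04 to 8.80 elsewhere. For Dbp they were B3galt6 (0.0404), Gne (0.0483) and 0610011F06Rik (0.0492), and for Nr1d1 Zfp606 (0.0311), Med27 (0.0446) and Adpgk (0.0464). Per1 varied least of the 4, with an SD of 0.0557, and its nearest were Nifk (0.0215), Luc7l2 (0.0229) and Arglu1 (0.0240). Likeness over 8 libraries of 4 groups is a description of these libraries only.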

How the data were processed

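RNA from 8 libraries was aligned with TopHat2 and summarised with Partek on mm10, per the submitters' processing notes; versions, gene annotation, strand setting and filters are not given in the sources used here. The deposited table holds a signal per gene: estimated counts that the authors scaled so that the upper quartile was equal across libraries to within 0.0548%. They are not raw counts, so no count test was used. Samples were grouped by their titles. Genes with a mean of at least 1 (13959 of 17488) were fitted as log2(value + 1) with limma-trend (limma 3.58.1, R 4.3.3). The fit had 1 mean per group and 1 spread over all 8 libraries from 4 residual degrees of freedom. This spread was drawn toward a trend over all tested genes, with 14.4 prior degrees of freedom. SEs, intervals and p-values rest on the resulting spread, not on the compared libraries alone. The pseudocount understates changes of low genes. Adjusted p-values are two-sided, Benjamini-Hochberg over all tested genes, threshold 0.05. The test was checked on simulated data. Levels per kb use the exon union of GENCODE vM21. Leaving out a library leaves 1 in its group, which is then assumed to vary like the others.

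The named genes are all members and, of each list, genes past the threshold in an inhibitor comparison or their difference (at most 6), otherwise the 2 with the highest mean. Members and lists were chosen with earlier results of these data known. Some listed genes are not reported here and are left out of their lists' counts. The marker lists covered embryonic stem, trophoblast, primitive endoderm, neural, fibroblast and mesendoderm cells. Alternatives were the pseudocount (0.1, 5), the filter (none, 5), TMM scaling (trimmed means of log ratios), quantile normalization, limma-voom on estimated reads, no variance trend, a replicate block, fits of the compared groups only and leaving out each library.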

Additional observations from a re-analysis of the deposited data

Results flagged for a closer look

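Nfil3 is listed because its change with the inhibitor differed between the lines by the test of the difference itself, at -0.49 (log2, GSK3β minus GSK3α, adjusted p = 0.0410). Both treated libraries of the GSK3α line lay above both untreated ones, and those of the GSK3β line lay between the untreated ones. Groups of 2 libraries were too small for a check of single outlying libraries.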

How the results depend on the processing

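The fall of Nr1d2 in the GSK3β line and the untreated line differences of Tef and Per3 passed in the 10 other settings and in the 8 fits that left out 1 library. Without a variance trend 0 members passed in the GSK3α line and 0 in the difference between the lines, and the counts of all genes were 3 in the GSK3α line, 980 in the GSK3β line and 133 in the difference. The difference also called 0 members without the filter on low values and 0 with quantile normalization. Leaving out 1 library gave 0 to 1 members and 16 to 186 genes in the GSK3α line, 864 to 2277 genes in the GSK3β line, 0 to 1 members and 353 to 1339 genes in the difference, and 2 to 5 members between the untreated lines. The fits reported gave 123, 2084 and 911 genes. Each leave-out leaves 1 library in a group, so the part of a single library in these ranges cannot be told from that of the smaller group.

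Signs turned only for changes that did not pass. Dbp in the GSK3β line turned to 0.00127 with TMM scaling and 0.0101 with quantile normalization, and Per1 in the difference to 0.00656, 0.00925 and, with limma-voom, 0.0120. Wee1 in the GSK3α line turned to 0.00636 with quantile normalization. The causes of these changes were not tested.

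Over the leave-outs the log2 change in the GSK3α line ran from -0.0828 to 0.00639 for Per1, -0.0543 to 0.0144 for Per3, -0.153 to 0.135 for Bhlhe40, -0.0230 to 0.0476 for Arntl, -0.0616 to 0.00426 for Sfpq, -0.0317 to 0.0239 for Wee1, -0.0567 to 0.0235 for Cebpd and -0.0425 to 0.0227 for Pde4d. In the GSK3β line it ran from -0.0637 to 0.168 for Nfil3, -0.0671 to 0.0585 for Dbp, -0.0646 to 0.0671 for Tef, -0.103 to 0.0137 for Per1, -0.0837 to 0.124 for Per3, -0.0197 to 0.0829 for Nr1d1 and -0.0579 to 0.0152 for Cry1. The difference ran from -0.0947 to 0.0371 for Tef, -0.0648 to 0.0519 for Per1, -0.0638 to 0.144 for Per3 and -0.198 to 0.0264 for Nr1d1. Between the untreated lines it was -0.116 to 0.00109 for Per1, -0.0119 to 0.0612 for Cry1, -0.0797 to 0.0150 for Bhlhe40 and -0.00435 to 0.0805 for Junb.

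Libraries with the same replicate number did not deviate together (correlations of -0.04 in the GSK3α line, -0.04 in the GSK3β line and 0.02 between untreated lines). The inhibitor groups were not compared in this way, and the labels do not say what the numbers mean. Whether they pair samples is therefore not settled. With a replicate block 1, 1, 1 and 4 members passed in the GSK3α line, the GSK3β line, the difference and the untreated lines, as without it, and 106, 1997, 831 and 6648 genes. The block ended the calls of Sik1 in the GSK3α line (0.0561) and of Csnk1e (0.0609) and Noct (0.0557) in the difference, and Cdkn1a in the GSK3α line passed with it (0.0400). Depth limits Per2 most, with 6 to 17 estimated reads, then Bhlhe40, with 72 to 127.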
